A study of Vitis vinifera and Vitis quinquangularis with 24 samples.

Results

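PR10 genes in a row on grapevine chromosome 5 were followed through ripening of the berry skin in 2 grape species. The set holds 8 gene models of a tandem array that were listed by identifier as PR10 (pathogenesis-related protein 10) models, and 7 of the 8 occur among the 27711 models of the deposited tables; VIT_05s0077g01580 was not analysed here. The identifiers are paired with no gene name in the tables, and 0 of the 27711 matched the RefSeq gene table, so the PR10 identity comes from the list and was not checked.

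Messenger RNA of berry skin was sequenced from Danfeng-2, an accession of the wild Chinese grape Vitis quinquangularis, and from Cabernet Sauvignon, a wine cultivar of Vitis vinifera. Berries were taken at stages 33, 34, 35 and 38 of the Eichhorn-Lorenz (E-L) scale, on which they are green and hard, start to soften, start to colour and are ripe for harvest. The 8 groups of cultivar and stage had 3 libraries each, 24 in all, with no treatment given in the labels. Each species is represented by 1 accession, so species and accession cannot be told apart. Nothing in the labels ties the 3 libraries of each group to separate plants, and the tissue could not be checked against marker genes for want of gene names.

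PR10 proteins are small, mostly intracellular plant proteins that share the fold of the birch pollen allergen Bet v 1. The fold encloses a hydrophobic pocket that binds small ligands such as cytokinins and flavonoids, and some members have ribonuclease activity. Their genes are known for induction by pathogens, wounding and other stress, often lie in tandem, and in some plants are also active in healthy ripening fruit, as with the Fra a 1 proteins of strawberry.

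Total counts per library ran from 13201295 to 23095568. In a test of counts between libraries of 1 group, 18 pairs had a chi-square per degree of freedom of 1.56 to 4.69, against 73.4 to 165 in the other 6 pairs, each of which held 1 of 3 libraries. These are replicate 1 of Danfeng-2 at E-L 33, replicate 1 of the same accession at E-L 35 and replicate 3 of Cabernet Sauvignon at E-L 34, and values without them stand beside the results they change most. The 2 Danfeng-2 libraries touch the members most. In Danfeng-2 E-L 35 replicate 1 VIT_05s0077g01550 stood at 7.35 times and VIT_05s0077g01560 at 7.002 times the mean FPKM (fragments scaled by transcript length and library size) of the other two libraries, while VIT_05s0077g01690 stood at 0.340 times theirs.

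The members span 82.1 kb of chromosome 5, in the coordinates of the deposited tables, with no genome build stated in the labels or headers. On the minus strand lie VIT_05s0077g01530 (chr5:1232007-1232847), VIT_05s0077g01540 (chr5:1239417-1240018), VIT_05s0077g01550 (chr5:1242624-1243231) and VIT_05s0077g01560 (chr5:1246927-1251185). VIT_05s0077g01570 is listed on the plus strand at chr5:1232115-1264645, a span of 32531 bp that holds VIT_05s0077g01540, VIT_05s0077g01550 and VIT_05s0077g01560 whole and overlaps VIT_05s0077g01530, which starts 108 bp before it. VIT_05s0077g01600 (chr5:1271452-1272235) and VIT_05s0077g01690 (chr5:1306299-1314087) follow on the plus strand.

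**Figure D1:**
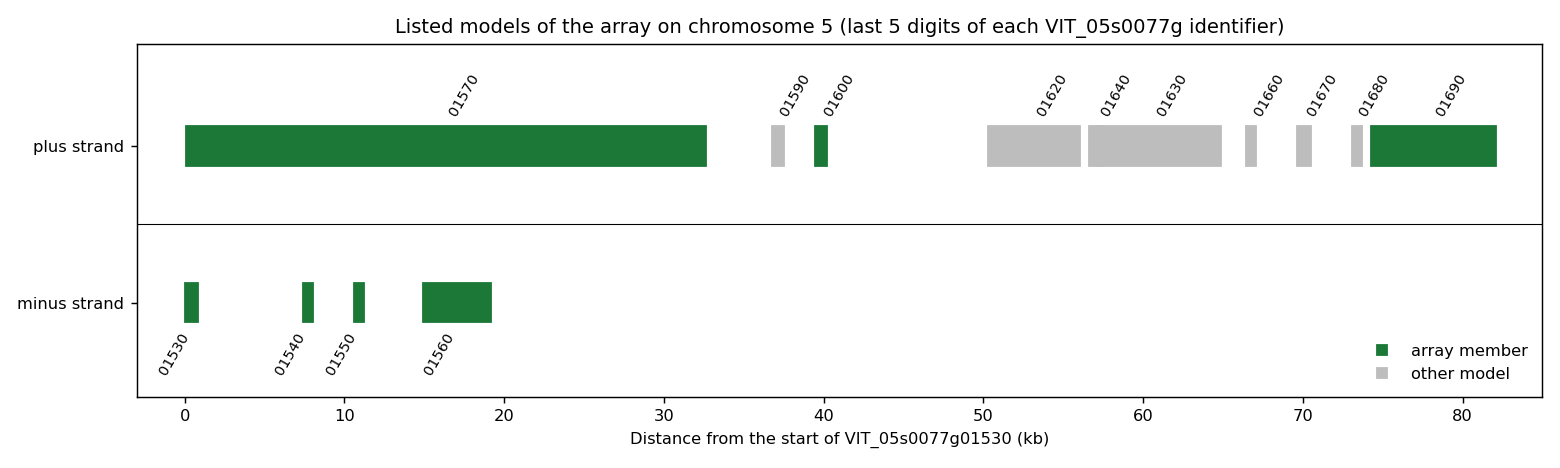
Map of the array to scale, with distance from the start of VIT_05s0077g01530 in kb on the x axis and strand on the y axis. Green boxes are the 7 members and grey boxes the 7 other models between them; VIT_05s0077g01570 lies opposite the 4 minus-strand members.

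Whether reads were assigned by strand is not given, so reads of VIT_05s0077g01570 and of the 4 minus-strand members cannot be told apart with certainty. Members of a tandem array can also be near-identical copies, and how shared reads were divided is not stated. Reads of both species were counted on the same models, and whether they match these models equally well was not tested. In every cultivar comparison, a lower level in either species and a poorer match of its reads cannot be told apart. The 4 minus-strand models held between 0.1004% (Danfeng-2 E-L 34) and 3.89% (Cabernet Sauvignon E-L 35) of the counts of the 5 overlapping models, as group means. In Cabernet Sauvignon VIT_05s0077g01530 had 18.6, 18.4 and 18.3 CPM (counts scaled to library size alone) when colour began, against 0.0438, 0 and 0.0448 CPM at softening. VIT_05s0077g01570 had 2480, 2472 and 2340 CPM when colour began, against 3119, 3168 and 2045 CPM at softening, a difference that was not called.

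VIT_05s0077g01570 carried nearly all of the transcript of the 7 members, a sum that leaves out the other models between them. It made up 93.6% to 99.8% of the summed FPKM of the 7 members in each group, on average over the libraries. In Danfeng-2 at E-L 35 it ranked 5 or 6 by FPKM among all models in each library and took 0.486% of the library's counts; in Cabernet Sauvignon at E-L 33 it ranked between 197 and 203. Its FPKM was 37.2 to 1314 times that of the next member, depending on the group. That distance was 16.4 to 544 times when counts were divided by the listed length.

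The levels of VIT_05s0077g01570 by library differed in course between the cultivars. At E-L 33 it had 804.8, 967.6 and 1026 FPKM in Danfeng-2 and 476.5, 487.6 and 470.9 FPKM in Cabernet Sauvignon. At E-L 34 it had 4123, 4263 and 4229 FPKM in Danfeng-2 and 5338, 5476 and 3372 FPKM in Cabernet Sauvignon, where the third library is the one that stands apart. The cultivars were thus separate at the green stage, with Danfeng-2 higher, and overlapped at softening. At E-L 35 the libraries gave 7733, 6780 and 6458 FPKM in Danfeng-2 and 3832, 3805 and 3583 FPKM in Cabernet Sauvignon. At E-L 38 they gave 2638, 2651 and 2595 FPKM in Danfeng-2 and 4342, 4509 and 4842 FPKM in Cabernet Sauvignon. Every Danfeng-2 library was above every Cabernet Sauvignon library at the onset of colour and below every one at harvest.

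Tests used counts in edgeR's quasi-likelihood model of all 24 libraries, and a call needed both a Benjamini-Hochberg adjusted p under 0.05, over the 18375 models tested, and a change of at least 2-fold. In Danfeng-2, VIT_05s0077g01570 rose at E-L 34 over E-L 33 by 2.18 ± 0.14 on the log2 scale (SE, n = 3 libraries per group; edgeR adjusted p = 4.2e-09). It fell by 1.42 ± 0.13 (log2, SE) at E-L 38 against E-L 35 (edgeR adjusted p = 4.8e-08). The step between those, E-L 35 over E-L 34, was 0.74 ± 0.13 (log2, SE; edgeR adjusted p = 0.00036), under the fold minimum. Danfeng-2 skin thus had its highest level when colour began.

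In Cabernet Sauvignon the gene rose at the first step, with no call at the later ones. E-L 34 over E-L 33 was 3.27 ± 0.14 (log2, SE; edgeR adjusted p = 1.4e-11). E-L 35 over E-L 34 was -0.19 ± 0.13 (log2, SE; edgeR adjusted p = 0.22), and E-L 38 over E-L 35 was 0.24 ± 0.13 (log2, SE; edgeR adjusted p = 0.18). Over the whole span, E-L 38 over E-L 33, the change was 1.51 ± 0.13 in Danfeng-2 and 3.31 ± 0.14 in Cabernet Sauvignon (log2, SE), and the Danfeng-2 change minus the Cabernet Sauvignon change was -1.80 ± 0.19 (log2, SE; edgeR adjusted p = 2.6e-07).

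Between the cultivars no stage reached a call for VIT_05s0077g01570, though the adjusted p was below the threshold at 3 stages. The log2 fold change of Danfeng-2 over Cabernet Sauvignon was 0.99 ± 0.13 at E-L 33 (SE; edgeR adjusted p = 4.1e-06), just under 2-fold. Without Danfeng-2 E-L 33 replicate 1 it was 1.09 (edgeR adjusted p = 4.3e-07), which is a call. It was -0.10 ± 0.13 at E-L 34 (SE; edgeR adjusted p = 0.55) and 0.84 ± 0.13 when colour began (SE; edgeR adjusted p = 1.9e-05). Without the 3 libraries that stand apart, the E-L 34 value was -0.30 (edgeR adjusted p = 3.1e-08), under the fold minimum. The libraries left differ less within groups, which lowers that adjusted p. In ripe skin it was -0.82 ± 0.13 (SE; edgeR adjusted p = 2.9e-05). The sign of the difference therefore was opposite at E-L 35 and E-L 38, with no overlap of libraries at either stage. Lack of overlap was common: by CPM it held for 62.8%, 63.8%, 66.5% and 77.1% of all tested models in order of stage. Among the 7 members it held for 5, 4, 5 and 5. These shares stand beside each separate range given for the other members.

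In the order of group means by FPKM, VIT_05s0077g01570 ran from 6990 ± 663 in Danfeng-2 E-L 35 through 4729 ± 1177 in Cabernet Sauvignon E-L 34, 4564 ± 254 in Cabernet Sauvignon E-L 38 and 4205 ± 73.3 in Danfeng-2 E-L 34 (SD, n = 3). The lower groups were Cabernet Sauvignon E-L 35 at 3740 ± 136, Danfeng-2 E-L 38 at 2628 ± 29.8, Danfeng-2 E-L 33 at 932.9 ± 115 and Cabernet Sauvignon E-L 33 at 478.4 ± 8.52 FPKM (SD, n = 3). Among neighbours in this order, Cabernet Sauvignon E-L 34 and E-L 38 overlapped in range. By CPM, 2 groups changed place. In bulk skin, a lower level in each cell and fewer cells that hold the transcript cannot be told apart, here and in every result that follows.

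**Figure D2:**
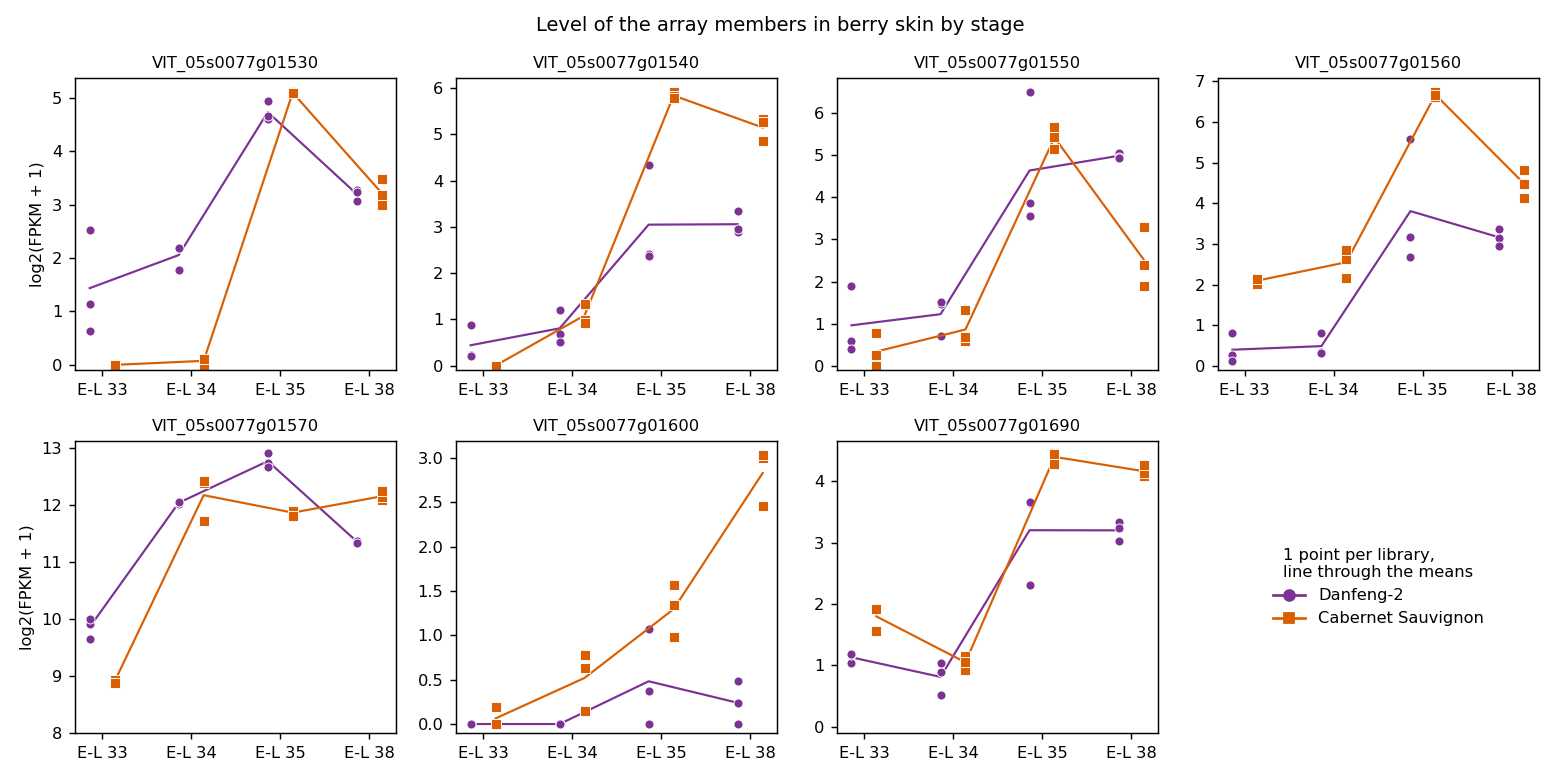
Level of each member, log2(FPKM + 1) on the y axis, against E-L stage on the x axis, with 1 point per library and a line through the group means (Danfeng-2 in purple, Cabernet Sauvignon in orange). VIT_05s0077g01570 has its highest Danfeng-2 mean at E-L 35 (6990 FPKM), and the other members are low in both cultivars at E-L 33 and E-L 34.

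The 6 other members together were scarce before colouring in both cultivars. Their summed FPKM in order of stage was 5.30, 6.60, 102.4 and 62.65 in Danfeng-2 and 6.14, 8.57, 254.1 and 93.3 in Cabernet Sauvignon, as group means. The Cabernet Sauvignon sum was highest at E-L 35. The Danfeng-2 sum at that stage was 189.8 in replicate 1, the library that stands apart, and 58.28 and 58.98 in the others, which average 58.63, below the mean in ripe skin.

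At the step into colour, E-L 35 over E-L 34, 6 of the 7 members rose in Danfeng-2 and 0 fell, where 4.85% of all tested models were called higher and 4.27% lower. In Cabernet Sauvignon 5 of 7 rose and 0 fell, where 14.5% of all were called higher and 16.9% lower. Without the 3 libraries that stand apart, 5 members rose in each cultivar. The members' median log2 fold change was 3.53 in Danfeng-2 and 4.39 in Cabernet Sauvignon. All 5 that rose in Cabernet Sauvignon, VIT_05s0077g01530, VIT_05s0077g01540, VIT_05s0077g01550, VIT_05s0077g01560 and VIT_05s0077g01690, rose in Danfeng-2 too.

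VIT_05s0077g01530 was read in Danfeng-2 from the green stage on, and in Cabernet Sauvignon almost only from colouring. At E-L 33 it had 4.77, 0.554 and 1.22 FPKM in Danfeng-2 (42, 6 and 14 counts), against 0 counts in each of the 3 Cabernet Sauvignon libraries. At E-L 34 the libraries gave 3.56, 2.45 and 3.59 FPKM in Danfeng-2 and 0.0828, 0 and 0.0811 FPKM in Cabernet Sauvignon. No library of the cultivars overlapped at either stage. At E-L 33 the gene was at least 17.1-fold higher in Danfeng-2, with the Cabernet Sauvignon group set to a floor of 3 counts. Replicate 1 of Danfeng-2 gave 42 of its 62 counts, and without it the bound was 7.77-fold. At E-L 34 the ratio of scaled counts was 57.8 (95% interval 15.5 to 485, counting error only).

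Both of these differences were called, with edgeR adjusted p = 5.2e-05 in green berries and 9.7e-06 at softening. Once colour had begun, no difference was called: at E-L 35 VIT_05s0077g01530 averaged 25.8 ± 3.39 FPKM in Danfeng-2 and 33.3 ± 0.310 FPKM in Cabernet Sauvignon (SD, n = 3 each), with a log2 fold change of -0.38 ± 0.36 (SE; edgeR adjusted p = 0.37). At E-L 38 it averaged 8.20 ± 0.660 FPKM in Danfeng-2 and 8.39 ± 1.60 FPKM in Cabernet Sauvignon (SD, n = 3 each), a log2 fold change of -0.06 ± 0.39 (SE; edgeR adjusted p = 0.92). From E-L 35 to E-L 38 the gene fell in both, by 1.66 ± 0.38 in Danfeng-2 and by 1.99 ± 0.38 in Cabernet Sauvignon (log2, SE; edgeR adjusted p = 0.0015 and 0.00075 in that order).

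VIT_05s0077g01540 was lower in Danfeng-2 from colouring on. At E-L 35 it had 19.3, 4.35 and 4.20 FPKM in Danfeng-2 and 59.3, 55.5 and 54.2 FPKM in Cabernet Sauvignon. At E-L 38 it had 6.38, 9.11 and 6.72 FPKM in Danfeng-2 and 39.2, 27.8 and 37.5 FPKM in Cabernet Sauvignon. The ranges did not overlap at either stage, although Danfeng-2 E-L 35 replicate 1 was 4.51 times the mean of the other two libraries. The log2 fold change of Danfeng-2 over Cabernet Sauvignon was -2.62 ± 0.43 at E-L 35 and -2.25 ± 0.45 at E-L 38 (SE; edgeR adjusted p = 5.2e-05 and 0.00032 in that order). Leaving out the 3 libraries that stand apart, the value when colour began was -3.67 (edgeR adjusted p = 8.8e-15). The libraries left differ less within groups, so a lower adjusted p without these 3, here and below, is not stronger evidence. In the early stages it stayed at or below 1.525 FPKM in every library of both cultivars, with 0 counts in Cabernet Sauvignon at E-L 33, and no cultivar difference was called there.

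VIT_05s0077g01550 was called higher in Danfeng-2 in ripe skin. At E-L 35 it had 89.0, 10.8 and 13.5 FPKM in Danfeng-2 and 50.1, 42.2 and 34.2 FPKM in Cabernet Sauvignon. At E-L 38 it had 32.4, 30.1 and 29.4 FPKM in Danfeng-2 and 4.30, 2.73 and 8.76 FPKM in Cabernet Sauvignon. The ranges overlapped at E-L 35 through Danfeng-2 replicate 1 and were separate at E-L 38, with Danfeng-2 higher. The log2 fold change of Danfeng-2 over Cabernet Sauvignon was -0.18 ± 0.59 at E-L 35 (SE; edgeR adjusted p = 0.81), and without Danfeng-2 E-L 35 replicate 1 it was -1.80 (edgeR adjusted p = 0.0029), a call. At E-L 38 it was 2.52 ± 0.68 (SE; edgeR adjusted p = 0.0037).

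Between colouring and harvest VIT_05s0077g01550 in Cabernet Sauvignon fell by 3.004 ± 0.68 on the log2 scale (SE; edgeR adjusted p = 0.0023). In Danfeng-2 the same step was -0.31 ± 0.60 (log2, SE; edgeR adjusted p = 0.70), and without Danfeng-2 E-L 35 replicate 1 it was 1.32 (edgeR adjusted p = 0.024), a call in the other direction. The change in Danfeng-2 minus that in Cabernet Sauvignon was 2.69 ± 0.90 (log2, SE; edgeR adjusted p = 0.021), which missed the threshold when Cabernet Sauvignon E-L 38 replicate 1 or 2 was left out (2.57 and 2.39, edgeR adjusted p = 0.052 and 0.061).

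VIT_05s0077g01560 was the one member called lower in Danfeng-2 at all 4 stages, and VIT_05s0077g01600 and VIT_05s0077g01690 had log2 fold changes below 0 at all 4 without a call at each. At E-L 33 it had 0.752, 0.204 and 0.0960 FPKM in Danfeng-2 and 3.40, 3.03 and 3.44 FPKM in Cabernet Sauvignon. At E-L 35 it had 46.8, 7.94 and 5.42 FPKM in Danfeng-2 and 105.5, 96.9 and 99.5 FPKM in Cabernet Sauvignon. At E-L 38 it had 7.93, 9.40 and 6.70 FPKM in Danfeng-2 and 16.4, 21.2 and 27.3 FPKM in Cabernet Sauvignon. The ranges were separate at each of these stages and also at E-L 34, where the means were 0.425 ± 0.297 FPKM in Danfeng-2 and 4.97 ± 1.38 FPKM in Cabernet Sauvignon (SD, n = 3 each).

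The log2 fold changes of VIT_05s0077g01560 in order of stage were -3.26 ± 0.89, -3.47 ± 0.82, -2.35 ± 0.51 and -1.45 ± 0.53 (SE; edgeR adjusted p = 0.0041, 0.0015, 5e-04 and 0.025 in the same order). When the 3 libraries that stand apart were left out, they were -4.31 in green berries and -3.87 when colour began (edgeR adjusted p = 3.1e-07 and 2.2e-18 in that order). Those adjusted p values rest on the smaller spread of the libraries left. The call at E-L 38 was lost when any of 3 single libraries was left out (Cabernet Sauvignon replicate 3, or Danfeng-2 replicate 1 or 3; edgeR adjusted p = 0.082, 0.063 and 0.078). In Danfeng-2 the E-L 38 against E-L 35 step was, with its E-L 35 replicate 1 left out, 0.24 (log2; edgeR adjusted p = 0.53), and -1.33 ± 0.53 (SE; edgeR adjusted p = 0.045) with all libraries. Cabernet Sauvignon fell by 2.22 ± 0.50 over that step (log2, SE; edgeR adjusted p = 0.0023).

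**Figure D3:**
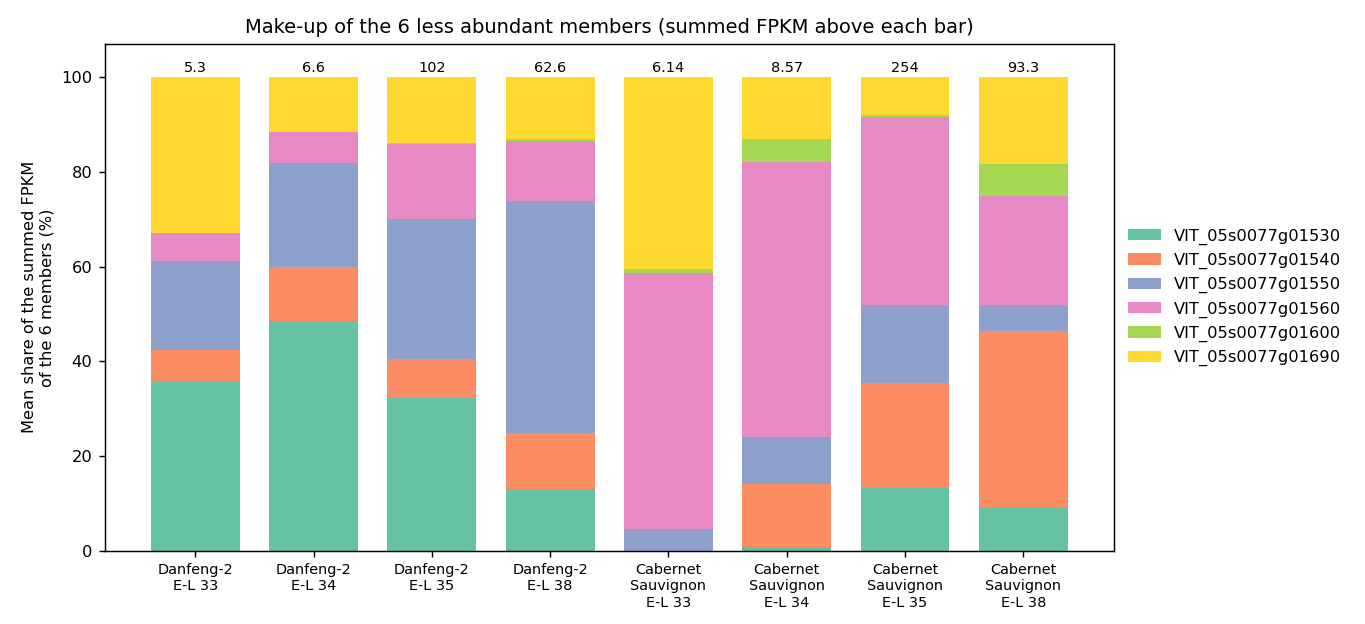
Mean share of each of the 6 less abundant members in their summed FPKM (y axis, percent) in each group (x axis), averaged over 3 libraries, with the mean summed FPKM above each bar. At E-L 38 VIT_05s0077g01550 holds 49.0% in Danfeng-2 and 5.40% in Cabernet Sauvignon.

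The make-up of these 6 members therefore differed at harvest. VIT_05s0077g01550 held 49.0% ± 3.02 of their summed FPKM in Danfeng-2 at E-L 38 and 5.40% ± 2.41 in Cabernet Sauvignon (SD, n = 3 each). VIT_05s0077g01540 held 11.8% ± 1.88 in Danfeng-2 and 37.5% ± 6.41 in Cabernet Sauvignon, and VIT_05s0077g01560 held 12.7% ± 1.39 in Danfeng-2 and 23.1% ± 3.70 in Cabernet Sauvignon (SD, n = 3 each). In the green stage the leading share was VIT_05s0077g01530 in Danfeng-2, at 35.8% ± 13.6, and VIT_05s0077g01560 in Cabernet Sauvignon, at 53.9% ± 4.11 (SD, n = 3 each). Without Danfeng-2 E-L 33 replicate 1, VIT_05s0077g01690 led by FPKM in green Danfeng-2 skin with 44.0%, and VIT_05s0077g01530 held 30.1%. The FPKM per CPM of VIT_05s0077g01690 differed 5.03-fold between libraries, so its shares depend on the unit. These shares describe the levels given above and were not tested.

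VIT_05s0077g01600 was the least abundant member and was read mainly in ripe Cabernet Sauvignon skin. At E-L 38 it had 0.177, 0.398 and 0 FPKM in Danfeng-2 (1, 2 and 0 counts) and 4.48, 6.98 and 7.21 FPKM in Cabernet Sauvignon (26, 39 and 40 counts). The ranges were separate, and the ratio of scaled counts, Danfeng-2 over Cabernet Sauvignon, was 0.0305 (95% interval 0.00620 to 0.0917, counting error only; edgeR adjusted p = 0.00012). At E-L 34 it had 0 counts in the 3 Danfeng-2 libraries and 5, 6 and 1 counts in Cabernet Sauvignon, which makes Danfeng-2 lower by a factor of at least 2.87, taking a floor of 3 counts over the group (edgeR adjusted p = 0.023). That call was lost when Cabernet Sauvignon replicate 2 or any 1 Danfeng-2 library of the stage was left out (edgeR adjusted p between 0.053 and 0.061) and by limma on log2(FPKM + 1) (adjusted p = 0.059).

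In Danfeng-2 VIT_05s0077g01600 also had 0 counts at E-L 33, and its 9 counts at E-L 35 came from 2 libraries, with 7 in replicate 1. Its call between E-L 35 and E-L 34 in Danfeng-2 (edgeR adjusted p = 0.043) was lost without that library (edgeR adjusted p = 0.18). The call was lost too without E-L 35 replicate 2 (edgeR adjusted p = 0.056) or any 1 E-L 34 library (edgeR adjusted p between 0.094 and 0.1). In Cabernet Sauvignon the gene rose between E-L 35 and E-L 38 by 2.04 ± 0.61 (log2, SE; edgeR adjusted p = 0.019), a call that was lost when any of 4 single libraries was left out, with the adjusted p between 0.059 and 0.086.

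VIT_05s0077g01690 was lower in Danfeng-2 by counts through the onset of colour. At E-L 33 it had 1.15, 1.66 and 1.63 CPM in Danfeng-2 and 3.62, 2.92 and 3.65 CPM in Cabernet Sauvignon. At E-L 34 it had 0.708, 0.424 and 0.952 CPM in Danfeng-2 and 1.49, 1.17 and 2.96 CPM in Cabernet Sauvignon. At E-L 35 it had 3.27, 6.27 and 6.34 CPM in Danfeng-2 and 21.3, 19 and 20.6 CPM in Cabernet Sauvignon. By CPM the ranges were separate at all 3 stages. The log2 fold changes were -1.18 ± 0.30, -1.43 ± 0.35 and -1.94 ± 0.27 (SE; edgeR adjusted p = 0.0025, 0.0019 and 4.5e-06 in order of stage). Without Cabernet Sauvignon E-L 34 replicate 3 the value at E-L 34 was -0.96 (edgeR adjusted p = 0.017), under the fold minimum.

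The result for VIT_05s0077g01690 depended on the unit in softening and ripe berries. In green berries the FPKM ranges were separate too, with 1.055 to 1.277 in Danfeng-2 and 1.94 to 2.791 in Cabernet Sauvignon. By limma the difference at E-L 33 was -0.67 on log2(FPKM + 1) and -0.99 on log2(FPKM + 0.1). Both were under the fold minimum (limma adjusted p = 0.026 and 0.012 in that order). At E-L 34 it was -0.24 on log2(FPKM + 1) (limma adjusted p = 0.45). At softening the FPKM ranges overlapped, with 0.433 to 1.05 in Danfeng-2 and 0.904 to 1.24 in Cabernet Sauvignon. In ripe skin by CPM it had 12.7, 12.3 and 10.4 in Danfeng-2 and 13.03, 12.4 and 14.9 in Cabernet Sauvignon, ranges that overlap, with a log2 fold change of -0.19 ± 0.26 (SE; edgeR adjusted p = 0.55). By FPKM it averaged 8.23 ± 1.02 in Danfeng-2 and 16.97 ± 1.24 in Cabernet Sauvignon (SD, n = 3 each), ranges that were separate. The FPKM per CPM of this model differed 5.03-fold between libraries, against at most 1.13-fold for the other members, and the authors' way of computing FPKM is not stated in the labels or headers. Its group mean of FPKM per CPM was 0.698 in Danfeng-2 at E-L 38 and 1.27 in Cabernet Sauvignon, and 1.63 in Danfeng-2 at E-L 35 and 0.992 in Cabernet Sauvignon.

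Between colouring and harvest, E-L 38 over E-L 35, counts of VIT_05s0077g01690 rose in Danfeng-2 by 1.15 ± 0.27, while in Cabernet Sauvignon the change was -0.59 ± 0.26 (log2, SE; edgeR adjusted p = 0.0015 and 0.088 in that order). By limma on log2(FPKM + 1), the Danfeng-2 change was -0.0025 (adjusted p = 1). Danfeng-2 E-L 35 replicate 1 was the lowest of its group, and without it the rise by counts was 0.90 (edgeR adjusted p = 0.0062), under the fold minimum.

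Counts over the 7 members in the cultivar comparison are given beside the shares of all tested models; those higher in Danfeng-2 were near these shares at 3 stages. At E-L 33, 1 was higher and 2 lower, where 13.5% of all tested models were called higher and 14.6% lower. At E-L 34, 1 was higher and 3 lower, where 12.8% of all were higher and 14.6% lower. When colour began (E-L 35), 0 were higher and 3 lower, where 17.7% of all were higher and 16.7% lower. In ripe skin (E-L 38), 1 was higher and 3 lower, where 15.3% of all were higher and 16.3% lower. The calls higher in Danfeng-2 were VIT_05s0077g01530 at E-L 33 and E-L 34 and VIT_05s0077g01550 at E-L 38. The members' median log2 fold changes were 0.99, -0.51, -1.68 and -0.82 in order of stage, against 0.06, -0.01, 0.02 and -0.03 over all tested models. Without the 3 libraries that stand apart, 5 members were lower at E-L 35, with VIT_05s0077g01550 and VIT_05s0077g01600 added, and 2 were higher and 2 lower at E-L 33.

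**Figure D4:**
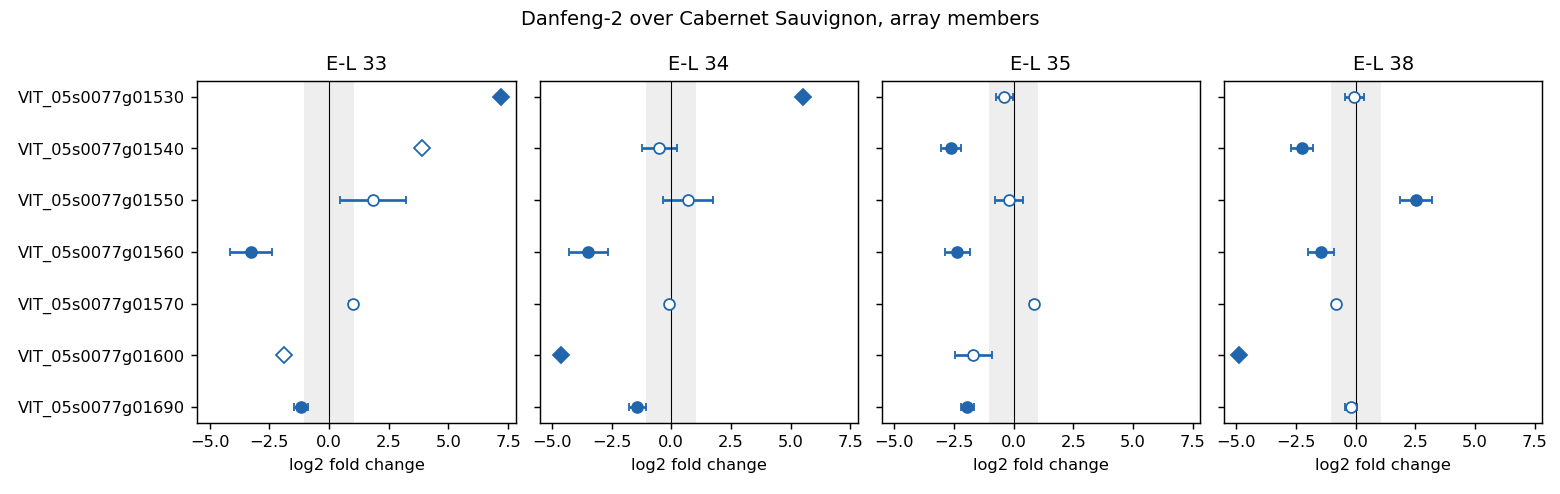
Log2 fold change of Danfeng-2 over Cabernet Sauvignon (x axis) for each member (y axis) at the 4 stages. Bars are the SE, filled symbols are calls, grey marks less than 2-fold, and diamonds mark members with 3 or fewer counts in a group, for which no SE is drawn. VIT_05s0077g01560 is below 0 and filled at every stage.

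Along ripening the members moved up in both cultivars. Over the whole span, E-L 38 over E-L 33, 6 of 7 rose in Danfeng-2 and 0 fell, where 11.5% of all tested models were called higher and 18.8% lower, with a median of 3.49 on the log2 scale. In Cabernet Sauvignon 7 of 7 rose, where 17.8% were called higher and 23.2% lower, with a median of 4.10. The member not called in Danfeng-2 was VIT_05s0077g01600, with 0 counts in green and 3 in ripe skin. At the first step, E-L 34 over E-L 33, 1 member rose and 1 fell in Danfeng-2, where 3.39% of all rose and 6.92% fell. The fall was that of VIT_05s0077g01690 (log2 -1.095; edgeR adjusted p = 0.036). By limma on log2(FPKM + 1) it was -0.32 (adjusted p = 0.42), with no call. The edgeR call was also lost when some single libraries were left out, with the adjusted p between 0.088 and 0.17. In Cabernet Sauvignon 2 rose and 0 fell, where 7.42% of all rose and 11.6% fell; VIT_05s0077g01570 rose in both. Without the 3 libraries that stand apart, 3 rose and 1 fell at that step in each cultivar.

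At the last step, E-L 38 over E-L 35, 1 member rose and 3 fell in Danfeng-2, where 9.92% of all tested models rose and 14.4% fell. In Cabernet Sauvignon 1 rose and 3 fell, where 3.63% of all rose and 6.98% fell. The members that fell in Danfeng-2 were VIT_05s0077g01530, VIT_05s0077g01560 and VIT_05s0077g01570, and those in Cabernet Sauvignon were VIT_05s0077g01530, VIT_05s0077g01550 and VIT_05s0077g01560. The member that rose was VIT_05s0077g01690 in Danfeng-2 and VIT_05s0077g01600 in Cabernet Sauvignon. With the libraries that stand apart left out, 1 rose and 2 fell in Danfeng-2: VIT_05s0077g01550 rose (1.28), VIT_05s0077g01530 and VIT_05s0077g01570 fell, and VIT_05s0077g01690 (0.87) and VIT_05s0077g01560 (0.21) had no call. Comparisons of adjoining steps share the libraries of the stage between them.

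The test of the difference between the cultivars' changes called 9 results in all, and each share that follows is that of all tested models with a change called higher or lower in Danfeng-2 than in Cabernet Sauvignon. For the first step, 0 of 7 members were higher and 1 lower (8.39% and 9.15% of all); it was VIT_05s0077g01570, whose rise was smaller in Danfeng-2. For the step into colour, 0 were higher and 1, VIT_05s0077g01530, lower (13.4% and 10.6%). For the last step 2 were higher, VIT_05s0077g01550 and VIT_05s0077g01690, and 2 lower, VIT_05s0077g01570 and VIT_05s0077g01600 (12.5% and 12.6%). The call of VIT_05s0077g01600 (edgeR adjusted p = 0.049) was lost when most single libraries were left out. Over the whole span 0 were higher and 3 lower, VIT_05s0077g01530, VIT_05s0077g01540 and VIT_05s0077g01570 (14.6% and 16%). Without the 3 libraries that stand apart, the step into colour had 1 higher, VIT_05s0077g01570 (1.12), and 3 lower. With only Cabernet Sauvignon E-L 34 replicate 3 left out, that value was 1.18 (edgeR adjusted p = 1.2e-06). Without the 3 libraries, the last step had 4 higher and 1 lower, and the whole span 1 higher and 3 lower.

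Across the 24 libraries the members did not share 1 pattern. Pearson's r of log2 CPM between VIT_05s0077g01570 and each other member was 0.203 to 0.626, and among the other 6 it was 0.381 to 0.866, the highest for VIT_05s0077g01530 with VIT_05s0077g01550. These values describe libraries that share stage and cultivar, and several rest on low counts. The 5 tested models most like VIT_05s0077g01570 by the same measure were VIT_06s0004g04590 (r = 0.948), VIT_08s0007g04870 (0.914), VIT_00s0682g00010 (0.913), VIT_13s0019g02300 (0.892) and VIT_01s0146g00280 (0.888), none of them placed on chromosome 5. The same 5 were most like the summed CPM of the members, which followed VIT_05s0077g01570 with r = 0.9999.

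Among the members lie 7 other models, of which 4 were tested, and these were not lower in Danfeng-2 at any stage. In order of stage, 3, 3, 4 and 3 of the 4 were called higher in Danfeng-2 and 0 lower. Of all tested models, 13.5%, 12.8%, 17.7% and 15.3% were called higher in the same order. The shares called lower were 14.6%, 14.6%, 16.7% and 16.3%. Without the 3 libraries that stand apart, 3, 4, 4 and 3 of the 4 models were higher and 0 lower. VIT_05s0077g01670 (chr5:1301653-1302526), the most abundant of them, had 691, 659 and 692 FPKM in Danfeng-2 at E-L 38 and 12.5, 10.46 and 9.17 FPKM in Cabernet Sauvignon. Its log2 fold change of Danfeng-2 over Cabernet Sauvignon was 3.84, 2.01, 4.04 and 5.96 at the 4 stages, each a call in edgeR. VIT_05s0077g01630 (chr5:1288628-1296851) had 406, 415 and 402 FPKM in Danfeng-2 at E-L 38 and 1.57, 1.16 and 2.20 FPKM in Cabernet Sauvignon, a log2 fold change of 7.76 ± 0.56 (SE; edgeR adjusted p = 8.7e-10).

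Outside the array, 0 of the 9 tested models among the 10 before it were called higher in Danfeng-2 and 3 lower at each stage. Of these the most abundant were VIT_05s0077g01500, VIT_05s0077g01470 and VIT_05s0077g01430, of which VIT_05s0077g01470 was called, lower in Danfeng-2 at E-L 33 and E-L 35 (log2 -2.42 and -2.17). Of the 9 tested among the 10 after it, at most 1 was higher and 1 or 2 were lower at a stage. Depending on the stage, 12.8% to 17.7% of all tested models were called higher and 14.6% to 16.7% lower. The counts after the array were near these shares.

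**Figure D5:**
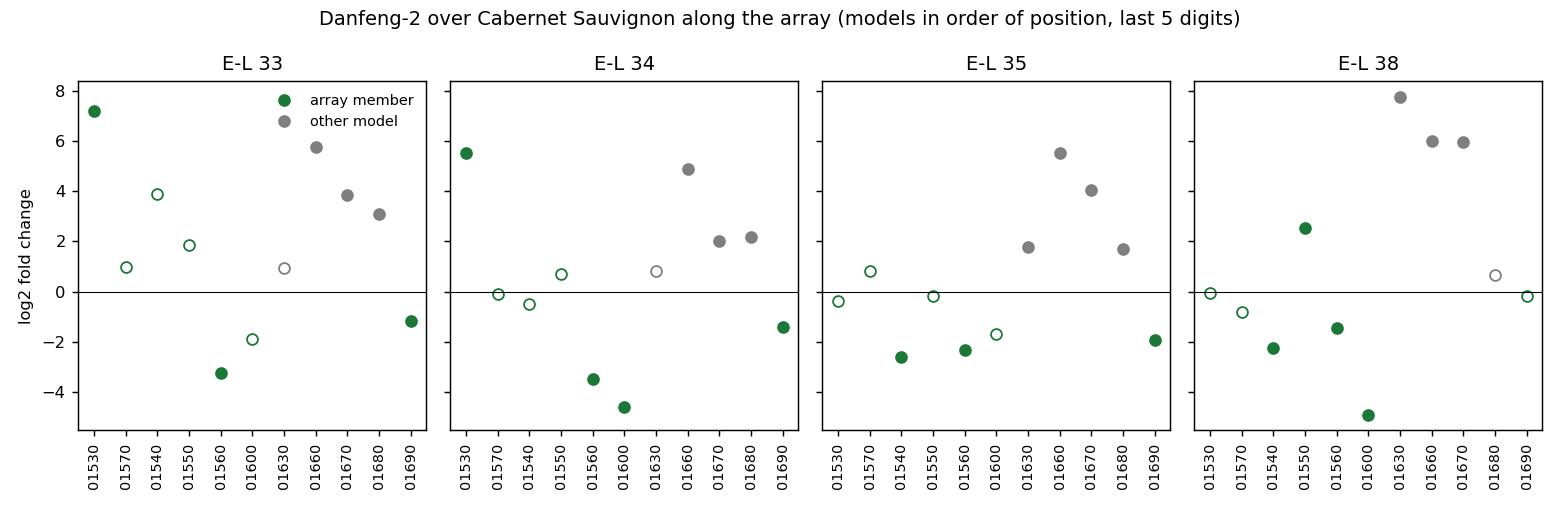
Log2 fold change of Danfeng-2 over Cabernet Sauvignon (y axis) at the 4 stages, for the members and the tested models between them. The 11 models are in order of position (x axis, last digits of each identifier). Green points are members, grey points the other models between them, and filled points are calls; the grey points lie above 0 at every stage.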

How the data were processed

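Each of the 24 libraries has a deposited table. The submitters' processing notes name TopHat2; its version, the build, the counter and whether strand was used are not stated in the labels or headers. Per the file headers, the authors give each model's count, its FPKM, a Normalized signal (used here only to check counts) and a length. Of 150 member counts above 0, 119 equalled the Normalized value over 1 library factor within 0.02; the exceptions were VIT_05s0077g01570 and VIT_05s0077g01690.

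Counts were tested with edgeR 4.0.16 in R 4.3.3: filterByExpr (18375 models kept, all 7 members), TMM scaling, and a quasi-likelihood fit of 8 groups to 24 libraries, with 16 contrasts. P-values were adjusted over all tested models, separately for each contrast. The SE is the log2 fold change over the square root of F. The common biological coefficient of variation was 0.200. The labels name no separate plants, so p-values reflect the spread of these libraries alone, which may be technical. CPM uses TMM library sizes. Floors and intervals cover counting error only. The procedure was tested on simulated counts for the cultivar comparison at E-L 38, without libraries that stand apart. It called 36% of true 2-fold changes, 80% of 3-fold, 92% of 4-fold and 98% of 8-fold changes.

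Named are all members found, the 5 neighbouring models with the highest mean FPKM and the 5 most alike; members and lists were chosen with earlier results of these data known. A list of other PR10 models by name could not be made. Alternatives were RLE factors, other filters, a replicate block, a fit of each contrast's own groups, DESeq2 1.42.0, limma (3.58.1) with a pseudocount of 1 or 0.1 added to FPKM before log2, no fold minimum, and leaving out libraries; summing the 5 overlapping models was added after seeing the data. No sequence is printed, as no table used here holds one for these models.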

Additional observations from a re-analysis of the deposited data

Results flagged for a closer look

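The change along ripening differed between the cultivars by the test of the difference itself (edgeR, adjusted over all models; difference is the Danfeng-2 change minus the Cabernet Sauvignon change, log2). For VIT_05s0077g01570 it was -1.085 from E-L 33 to E-L 34 (adjusted p = 0.00017), with a rise of 2.18 in Danfeng-2 and 3.27 in Cabernet Sauvignon. Without Cabernet Sauvignon E-L 34 replicate 1 or 2 it was -0.9965 and -0.982, under the fold minimum. From E-L 35 to E-L 38 it was -1.654 for this member (adjusted p = 9.8e-07), a fall in Danfeng-2 beside a change of 0.24 in Cabernet Sauvignon. Over the whole span it was -1.801 (adjusted p = 2.6e-07).

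For VIT_05s0077g01530 the difference was -5.917 from E-L 34 to E-L 35 (adjusted p = 3.4e-05) and -7.269 over the whole span (adjusted p = 0.00019). Both rest on Cabernet Sauvignon groups with 0 or 2 counts, so their size depends on the model's handling of zeros. For VIT_05s0077g01540 the difference over the whole span was -6.142 (adjusted p = 0.01), with 0 counts in Cabernet Sauvignon at E-L 33 and 6 in Danfeng-2; without Danfeng-2 E-L 33 replicate 1 it was -5.14 (adjusted p = 0.11).

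From E-L 35 to E-L 38 the difference was 2.694 for VIT_05s0077g01550 (adjusted p = 0.021), 4.29 without the 3 libraries that stand apart (adjusted p = 1.5e-11), and 1.746 for VIT_05s0077g01690 (adjusted p = 0.00088). By limma on log2(FPKM + 1) the value of VIT_05s0077g01690 was 0.23 (adjusted p = 0.62). For VIT_05s0077g01600 it was -3.232 (adjusted p = 0.049), with 3 counts in ripe Danfeng-2 skin and 9 when colour began. Without Danfeng-2 E-L 35 replicate 1 it was -1.74 (adjusted p = 0.40). That call was also lost with RLE factors (adjusted p = 0.051), no filter (0.065) or a replicate block (0.068). Leaving out most of the other single libraries of these groups lost it too.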

How the results depend on the processing

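Over the 4 stages, 14 of 28 cultivar results of the members were called. Over the 4 ripening contrasts, 18 of 28 were called in Danfeng-2 and 18 of 28 in Cabernet Sauvignon. Of the differences in change, 9 of 28 were called. Of all tested models, 12.8% to 17.7% were called higher and 14.6% to 16.7% lower between the cultivars at a stage. Per ripening contrast, 3.39% to 11.5% were higher and 4.27% to 18.8% lower in Danfeng-2. In Cabernet Sauvignon, 3.63% to 17.8% were higher and 6.98% to 23.2% lower. For differences in change, 8.39% to 14.6% were higher and 9.15% to 16% lower. Under the other settings that left out no library of a contrast, the counts of member calls lay within 1.5 times the values given. The fit of each contrast's own groups used only their libraries. It left 8 of the 28 cultivar results and 7 of the 28 Danfeng-2 results untested. Without the 3 libraries that stand apart, differences in change numbered 14 (6 higher, 8 lower in Danfeng-2); the cause was not tested. Leaving out 1 library at a time gave 13 to 17 cultivar calls, 15 to 19 in Danfeng-2, 17 to 20 in Cabernet Sauvignon and 7 to 14 differences. In 84 same-numbered pairs the correlation of deviations was -0.162 to 0.196, with 2 above 0.1. These values show no strong shared deviation. With 3 libraries a group they cannot settle whether the replicate numbers pair the samples, and the labels do not say. With the replicate number as a block the counts were 14, 16, 18 and 10 in the order above.

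Among single members, 3 results changed direction, all for E-L 38 over E-L 35 in Danfeng-2. VIT_05s0077g01550 was 1.284 without the 3 libraries, and leaving out 1 library at a time gave -0.7518 to 1.315, the highest without Danfeng-2 E-L 35 replicate 1. VIT_05s0077g01560 was 0.2084 without the 3 libraries and -1.776 to 0.2417 leaving out 1 at a time, the highest without the same library. VIT_05s0077g01690 was -0.002454 by limma on log2(FPKM + 1). In 39 further cases the sign changed with no call in either setting. Summing the 5 overlapping models, a setting chosen after seeing the data, changed no call of VIT_05s0077g01570. The 4 minus-strand models held at most 3.89% of the summed counts as a group mean, so the sum could hardly move that result. Whether reads of VIT_05s0077g01570 were counted in those models was not tested. Low counts limit VIT_05s0077g01600 in Danfeng-2, with at most 9 per group, and VIT_05s0077g01540 at E-L 33, with 6 in Danfeng-2 and 0 in Cabernet Sauvignon.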
